A study of Mus musculus with 16 samples.

Results

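Short genomic windows over the older B1 repeats of the mouse, those annotated with a name beginning B1F or PB1, were examined in dorsal root ganglia after sciatic nerve crush. A window belonged to the set when its identifier carried the Alu family and its annotation began with either name. This gave 3319 of the 205758 windows of the table, which are 3319 of the 55655 windows of the Alu family. The 8 names held 831 windows of PB1D9, 828 of PB1D10, 538 of B1F, 351 of PB1D7, 232 of B1F1, 209 of B1F2, 198 of PB1D11 and 132 of PB1.

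B1 elements are short interspersed repeats of rodents that descend from 7SL RNA, the RNA of the signal recognition particle, as do the Alu elements of primates. RNA polymerase III can transcribe them from a promoter inside the element, and copies that lie in introns or untranslated regions are also carried in transcripts of the genes around them. Names of the PB1 group (proto-B1) and the B1F group are given in repeat catalogues to early branches of the family, whereas B1_Mm, B1_Mur and B1_Mus are names of later ones. That age is a property of the annotation and was not measured here.

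The ganglia were those of lumbar levels L4 to L6, which hold the cell bodies of the sensory neurons whose axons run in the sciatic nerve, and they were dissociated with a Percoll step before total RNA was extracted. The 4 groups of 4 libraries were injured ganglia 24 h after a crush of one sciatic nerve, naive ganglia 24 h after it, injured ganglia 72 h after it and naive ganglia 72 h after it. Each animal gave both injured and naive ganglia, per the series text, so that the naive ganglia come from mice that also carried a crushed nerve, and that text calls the mice of a time its replicates. The sample labels do not say which libraries share an animal, so results are given for unpaired libraries, with the fit that takes the replicate number as a block (the replicate block) beside each call it changes. The gene table held 32758978 to 56484541 counts a library, and the older B1 windows held 1199 to 3295.

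Levels are CPM, counts per 1000000 gene-table counts scaled by TMM factors, and every fold change is log2 of injured over naive. A library with 0 counts allows up to 3 counts, which is 0.053 to 0.0924 CPM at these depths. Floors and intervals cover counting error only, because no molecular identifiers mark which reads stem from one molecule. In RNA from a dissociated mixture of cells, fewer cells of a type and less RNA per cell cannot be told apart. Defining genes of sensory neurons were high in all groups: the summed level of 8 neuronal markers was 7326 to 9092 CPM in injured and 8738 to 9334 CPM in naive libraries at 24 h, and 9671 to 10265 CPM in injured and 8172 to 9707 CPM in naive libraries at 72 h. The 5 neutrophil markers summed to 37.4 to 142 CPM in injured and 101 to 394 CPM in naive libraries at 72 h, and the 6 macrophage markers to 39.7 to 50.1 CPM in injured and 10.2 to 22 CPM in naive libraries at that time. No marker had a mean of 0 in any group, and their part in the B1 results was not tested.

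Sequences are shown for the windows on which the results turn and which an annotated transcript covers, so that the short stretch that was counted can be seen. They are from GENCODE M21 transcripts on GRCm38, written 5′ to 3′ on the strand stated, and capitals mark the letters GGGCTA where the window holds them on the strand written.
Lmo7 exon window, PB1D11, chr14:101885804-101885827, plus strand: tcttaagcttcaaaatgaggctct
Dnajb14 untranslated region window, PB1D10, chr3:137915232-137915255, plus strand: gctagctggggtaccttgtaagac
Znrf2 untranslated region window, B1F, chr6:54891676-54891699, plus strand: gcctGGGCTAcctagtgaggtcta
6330403L08Rik exon window, PB1D10, chr5:139000103-139000126, plus strand: tGGGCTAtccttatagtaagatcc
Akap6 exon window of the later name B1_Mus1, shown for comparison, chr12:53153061-53153084, minus strand: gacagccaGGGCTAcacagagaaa

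The letters GGGCTA were picked after the sequences had been read, and they were searched on both strands of windows in exons that a transcript covers together with 60 bases on each side. Of 169 such older windows 14.8% held them, against 42.9% of 774 windows with B1_M names. A run of at least 6 A, the mark of the tail of these elements, lay within 60 bases on the tail side of the window in 64.5% of the older windows and 83.2% of the B1_M windows, and on the opposite side in 4.14% and 3.36% of them. Where the run gave the orientation, 96 of 108 older elements lay on the same strand as the gene and 12 on the opposite strand, compared with 352 and 289 of 641 B1_M elements. These shares describe the windows and were not tested.

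The windows were short and most held few reads. Of the older windows, 97.9% were 24 bp long, and the longest had 59 bp. At least 1 count in the 16 libraries together was found in 1317 of them (39.7%), and 2002 had none. The share with a count differed little between names, from 35.8% in B1F1 to 41.7% in PB1D10. In the B1_M windows it was 23.8% of 48397, and within these it was 20.2% for B1_Mm and 39.3% for B1_Mur2. How reads that map to several places were counted is not given in the sources used here, so the number of near-identical copies and the level of a name cannot be told apart. The older windows held 33776 counts in all, and a single window, in an untranslated region of Dnajb14, held 8.42% of them. By name, the mean number of counts per window over the 16 libraries together ran from 6.22 in PB1 to 13.1 in PB1D10.

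Most of these counts lay inside genes. By GENCODE M21, 2430 windows lay in introns, 346 in exons and 543 outside genes. The exon windows were 10.4% of the set and carried 32.2% of its counts, with 31.4 counts per window, compared with 7.41 per intron window and 9.0 per window outside genes. The 2776 windows inside genes fell in 2245 distinct genes, and 948 of them shared their gene with another older window, so these windows are not independent of each other.

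The comparison of injured with naive ganglia asks whether the crush raised RNA of these repeats, in a series titled for a rise of B2, another SINE family. The summed level of all older B1 windows did not separate the groups at either time. At 24 h it was 39.9, 39.8, 36.9 and 41.5 CPM in the injured libraries, against 45.5, 38.3, 41.0 and 39.3 CPM in the naive libraries. At 72 h it was 61.1, 64.3, 51.5 and 57.2 CPM in the injured libraries, against 44.6, 47.0, 62.4 and 58.7 CPM in the naive libraries. The groups overlapped at both times, and the naive group of 72 h fell into 2 libraries near the level of the 24 h groups and 2 near that of the injured group. The ratio of the means was −0.05 on the log2 scale at 24 h and 0.14 at 72 h. Without the 4 windows called higher below, these ratios were −0.09 and 0.05. Those windows were picked by their rise in these same libraries, so lower ratios without them follow from that choice. No test was made on this sum.

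The windows were also summed by location, at 72 h with the following levels. Windows outside genes summed to 8.39 ± 0.60 CPM in injured and 5.70 ± 0.72 CPM in naive ganglia (SD, n = 4 each), and these groups did not overlap. Such a separation upwards at 72 h was seen in 8.68% of 334 repeat names, and no test was made on sums by location. Of the 11 windows outside genes that could be tested singly, 0 were called at either time. Intron windows summed to 33.4 ± 3.92 CPM in injured and 30.9 ± 7.27 CPM in naive ganglia, and exon windows to 16.8 ± 1.61 CPM in injured and 16.5 ± 1.64 CPM in naive ganglia, with overlap in both. At 24 h the groups overlapped in all 3 locations. The levels were 7.08 ± 0.56 CPM in injured and 6.88 ± 0.62 CPM in naive ganglia outside genes, 18.7 ± 3.85 CPM in injured and 19.2 ± 1.96 CPM in naive ganglia in introns, and 13.8 ± 2.76 CPM in injured and 14.95 ± 1.66 CPM in naive ganglia in exons. The B1_M windows outside genes also did not overlap at 72 h, with 82.7 ± 11.8 CPM in injured and 48.3 ± 3.64 CPM in naive ganglia.

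No older name changed by edgeR's quasi-likelihood test on summed counts, adjusted over 334 repeat names. At 24 h 0 of the 8 names was called higher and 0 lower, where 1.8% of all names were called higher and 0.299% lower. At 72 h the counts were again 0 and 0, against 2.69% and 1.8% of all names. At an unadjusted p under 0.05 by edgeR there was 1 of the 8 names at each time, against 40 of all 334 names at 24 h and 62 at 72 h. DESeq2 called none of the 8 at either time, and its share over all names is not given. The log2 fold changes ran from −0.55 to 0.25 at 24 h, with 4 of 8 above 0, and from −0.10 to 0.44 at 72 h, with 6 of 8 above 0. Their standard errors ran from 0.15 to 0.32 at 24 h, so that a small change of a name would not be detectable.

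**Figure D1:**
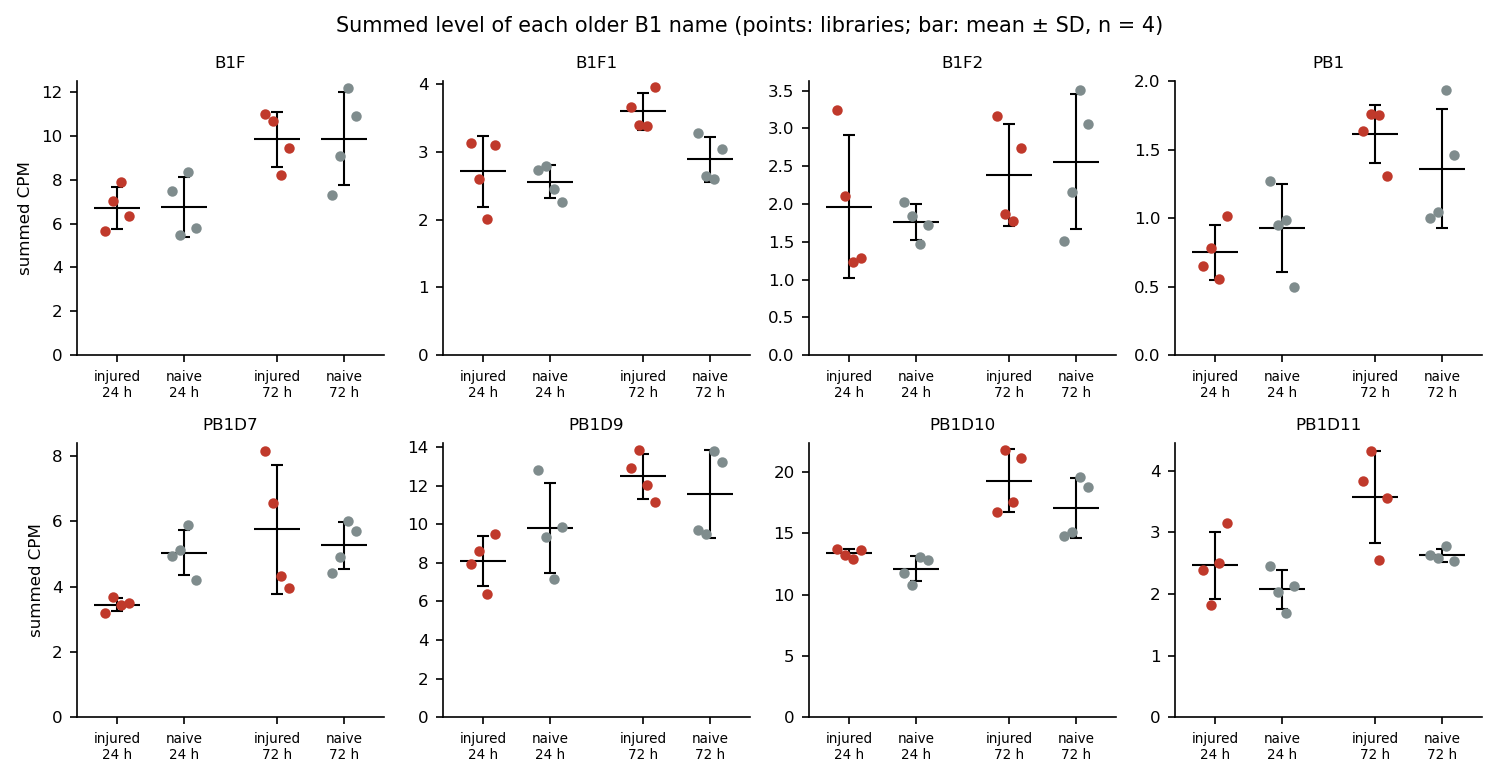
Summed level in CPM (vertical axes, from 0) of each of the 8 older B1 names in the 16 libraries (points), with the mean and SD of each group of 4 as a bar. Injured and naive points overlap in all panels except PB1D7 at 24 h, where the injured libraries lie at 3.18 to 3.67 CPM and the naive ones at 4.2 to 5.90, and B1F1 at 72 h, where they lie at 3.38 to 3.95 and 2.59 to 3.28.

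PB1D7 came closest to a call, and in the direction of a lower level. Its 351 windows summed to 3.18, 3.67, 3.45 and 3.49 CPM in the injured libraries of 24 h, against 4.95, 5.12, 5.90 and 4.2 CPM in the naive ones. Every injured library lay under every naive library, a separation that 3.29% of all names showed in that direction and 4.49% in the other. The log2 fold change was −0.55 (SE 0.19), with an unadjusted p of 0.0099 and an adjusted p of 0.170 by edgeR. At 72 h the same name had 8.17, 6.56, 4.33 and 3.95 CPM in injured and 4.42, 4.90, 6.03 and 5.70 CPM in naive libraries. The injured libraries spanned the naive ones there, and the difference between the responses at 72 h and at 24 h was 0.67 (SE 0.27, adjusted p = 0.763 by edgeR).

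PB1D11 and B1F1 had the highest fold changes at 72 h among the 8 names. PB1D11 had 3.84, 4.33, 2.55 and 3.55 CPM in injured libraries, against 2.63, 2.58, 2.77 and 2.53 CPM in naive ones. The naive libraries were close together, and 1 injured library, replicate 3, lay among them. The log2 fold change was 0.44 (SE 0.19, adjusted p = 0.221 by edgeR), and without its single window of highest count, the Lmo7 window described below, it was −0.03. B1F1 had 3.66, 3.4, 3.38 and 3.95 CPM in injured libraries, against 3.28, 2.64, 2.59 and 3.04 CPM in naive ones. These groups did not overlap, as was so for 8.68% of all names in that direction and 5.69% in the other, and the log2 fold change was 0.31 (SE 0.16, adjusted p = 0.317 by edgeR).

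The other 5 names overlapped between injured and naive ganglia at both times. B1F, with 538 windows, averaged 6.72 ± 0.95 CPM in injured and 6.76 ± 1.38 CPM in naive ganglia at 24 h, and 9.83 ± 1.26 CPM in injured and 9.87 ± 2.12 CPM in naive ganglia at 72 h (SD, n = 4 each). PB1D10, the name of highest summed level, averaged 13.4 ± 0.37 CPM in injured and 12.1 ± 1.03 CPM in naive ganglia at 24 h, and 19.3 ± 2.55 CPM in injured and 17.1 ± 2.48 CPM in naive ganglia at 72 h. PB1D9 averaged 8.10 ± 1.30 CPM in injured and 9.80 ± 2.32 CPM in naive ganglia at 24 h, and 12.5 ± 1.17 CPM in injured and 11.6 ± 2.28 CPM in naive ganglia at 72 h. For B1F2 and PB1, the names with the fewest counts, the log2 fold changes were 0.15 (SE 0.30) and −0.30 (SE 0.32) at 24 h and −0.10 (SE 0.29) and 0.25 (SE 0.30) at 72 h. All 8 names had a higher mean level at 72 h than at 24 h in injured and in naive ganglia alike. The gap was as small as 0.22 CPM, for PB1D7 in naive ganglia. Every B1_M name also had a higher mean at 72 h in both, so this is not particular to the older names. The share over all repeat names is not given. Time and library preparation cannot be told apart in these data.

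Beside them, the 7 B1_M names had log2 fold changes of −0.03 to 0.33 at 24 h and 0.00 to 0.48 at 72 h. B1_Mm, at 0.48 (SE 0.17), and B1_Mus1, at 0.48 (SE 0.17), had the highest values at 72 h, and the injured libraries of both lay above all naive libraries. Neither was called by edgeR, with an adjusted p of 0.112 for each. The 4 B1_Mur names lay between 0.00 and 0.20 at 72 h, within the range of the older names. No test was made of the difference between older and B1_M names.

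**Figure D2:**
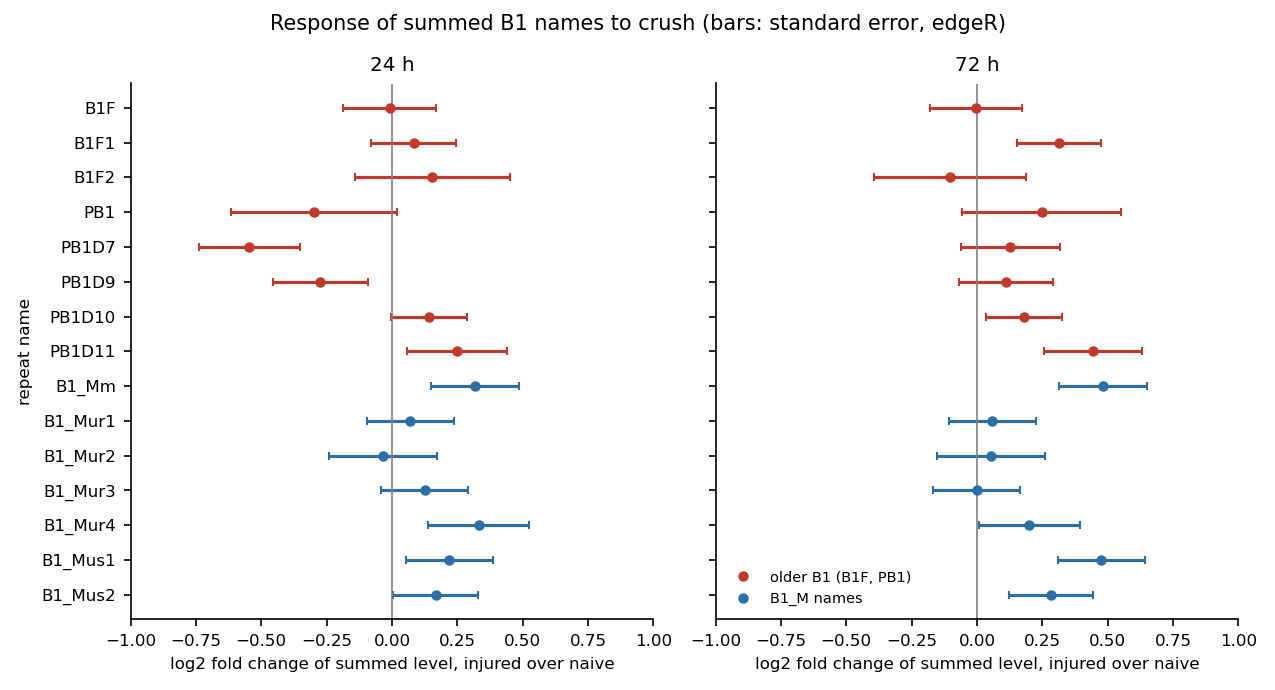
Log2 fold change of the summed level, injured over naive, at 24 h (left) and 72 h (right) for the 8 older B1 names (red) and the 7 B1_M names (blue), with standard errors from edgeR as bars. The older names lie between −0.55 (PB1D7) and 0.25 at 24 h and between −0.10 and 0.44 (PB1D11) at 72 h.

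Single copies were tested with edgeR over all 3780 repeat windows that passed the filter on low counts, of which 61 were older B1 windows, 1.84% of the set. Because a window can pass through 1 high group alone, the counts that follow describe the windows tested and not all 3319. At 24 h 2 of the 61 rose and 0 fell, where 4.63% of all tested windows were called higher and 0.556% lower. At 72 h 4 rose and 0 fell, where 9.07% were called higher and 1.75% lower. An unadjusted p under 0.05 by edgeR, in either direction, was found for 5 of the 61 at 24 h and 7 at 72 h. Over all 3780 tested windows it was found for 652 at 24 h and 822 at 72 h. DESeq2 called 3 higher and 1 lower at 24 h, and 4 higher and 0 lower at 72 h. With the replicate block 0 of the 61 were called higher at 24 h and 1, the Dlgap1 window, at 72 h. Shares over all windows are not given for DESeq2, for the block, or for windows whose injured and naive libraries do not overlap. The median log2 fold change of the 61 was 0.01 at 24 h and 0.05 at 72 h, against 0.11 over all tested windows at each time. The difference between the responses at 72 h and at 24 h was called for 0 of the 61 by edgeR and by DESeq2. By edgeR 0.0794% of all windows were called higher for this difference and 0.185% lower. An unadjusted p under 0.05 for it was found for 1 of the 61, against 310 of all 3780 windows.

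Of the B1_M windows, 11 of 220 tested rose at 24 h and 22 rose at 72 h, with 0 and 2 lower. The share of older windows called higher was 3.28% at 24 h and 6.56% at 72 h, and of B1_M windows 5% and 10%. These shares were not tested against each other.

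The PB1D11 window of Lmo7 rose at both times in the fit of unpaired libraries, and at neither with the replicate block. Lmo7 encodes a LIM domain protein of actin-based cell junctions, and the window (chr14:101885804-101885827, GRCm38) lies in an exon of a retained-intron transcript of the gene (ENSMUSG00000033060). It had 19, 17, 11 and 25 counts in the injured libraries of 24 h, against 0, 4, 0 and 0 counts in the naive ones. At 72 h it had 40, 77, 12 and 74 counts in the injured libraries, against 8, 0, 7 and 8 counts in the naive ones. All injured libraries lay above all naive libraries at each time, also on the CPM scale, where injured replicate 3 of 72 h was the lowest of its group at 0.309 CPM. The rule by which called windows were named required this separation, so it adds no support to the call. The log2 fold change was 4.36 (SE 0.95, adjusted p = 0.0099 by edgeR) at 24 h and 3.13 (SE 0.78, adjusted p = 0.0136 by edgeR) at 72 h. The naive level of 24 h rests on the 4 counts of replicate 2, and leaving out 1 library gave 3.99 to 7.34 at that time. Without injured replicate 2 of 72 h the adjusted p at 72 h was 0.0532, and with the libraries of 24 h alone that at 24 h was 0.0678. With the replicate block the log2 fold change was 4.66 at 24 h (adjusted p = 0.0591 by edgeR) and 3.09 at 72 h (adjusted p = 0.0757 by edgeR).

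Lmo7 itself rose. Its level was 51.8 ± 20.3 CPM in injured and 7.45 ± 0.66 CPM in naive ganglia at 24 h, and 194 ± 13.5 CPM in injured and 9.46 ± 1.39 CPM in naive ganglia at 72 h (SD, n = 4 each). The log2 fold changes of the gene were 2.80 (SE 0.20, adjusted p = 2.99e-10 by edgeR) and 4.36 (SE 0.20, adjusted p = 1.08e-13 by edgeR). Per 1000 counts of the gene, the window had 8.93 counts (95% Poisson interval 6.99 to 11.2) in injured and 2.86 (0.78 to 7.33) in naive ganglia at 24 h, summed over 4 libraries. At 72 h it had 6.00 (5.2 to 6.88) in injured and 13.3 (8.40 to 19.9) in naive ganglia. By library these shares overlapped between injured and naive ganglia at both times, and naive replicate 2 of 72 h had no count in the window. The intervals do not cover that spread between libraries, and no difference in the share was tested. Reads of the gene's transcripts and reads of a separate transcript of the repeat cannot be told apart in a window of this kind.

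The PB1D10 window in an intron of Dlgap1 rose most at 72 h. Dlgap1 encodes a scaffold protein of the postsynaptic density, and the window (chr17:70728539-70728590, GRCm38) is 52 bp long. It had 51, 101, 48 and 120 counts in the injured libraries of 72 h, against 0, 6, 5 and 0 counts in the naive ones. At 24 h it had 1, 11, 17 and 29 counts in the injured libraries, against 0, 4, 0 and 0 counts in the naive ones. The groups were far apart at 72 h, where the rule for naming called windows required no overlap. They overlapped at 24 h, where injured replicate 1 had fewer counts than naive replicate 2. The log2 fold change was 4.80 (SE 0.92, adjusted p = 0.0020 by edgeR) at 72 h and 4.04 (SE 1.05, adjusted p = 0.0311 by edgeR) at 24 h. Again the naive level of 24 h rests on the 4 counts of replicate 2, and leaving out 1 library gave 3.54 to 7.03 at that time. The call at 24 h was lost without any 1 of 5 libraries: the adjusted p was 0.0601 without injured replicate 3, 0.101 without injured replicate 4, 0.0729 without naive replicate 1, 0.073 without naive replicate 3 and 0.0681 without naive replicate 4. With the replicate block the window was called at 72 h (adjusted p = 0.0066 by edgeR) and not at 24 h (adjusted p = 0.0969 by edgeR).

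The gene around this window was not called at either time. Dlgap1 (ENSMUSG00000003279) was at 36.0 ± 1.66 CPM in injured and 35.8 ± 2.19 CPM in naive ganglia at 24 h, and at 39.3 to 44.2 CPM in injured and 38.0 to 44.2 CPM in naive libraries at 72 h. Its log2 fold changes were 0.01 (SE 0.07) and 0.04 (SE 0.07). Per 1000 counts of the gene the window had 44.3 counts (95% Poisson interval 39.6 to 49.5) in injured and 1.47 (0.73 to 2.63) in naive ganglia at 72 h. A window of the B2 name B2_Mm1a lies 144 bp away in the same intron. It had 32, 39, 34 and 33 counts in the injured libraries of 72 h, against 0, 0, 9 and 2 counts in the naive ones, which gave 3.61 on the log2 scale (SE 1.24) and an adjusted p of 0.0712 by edgeR. At 24 h the B2 window had 0, 10, 0 and 36 counts in the injured libraries, against 7, 0, 2 and 3 counts in the naive ones, with overlap.

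At 72 h 2 further windows rose in the fit of unpaired libraries, both with a mean under 10 counts per library and described after their values were seen. A PB1D9 window in an intron of Gm38392 (chr3:88279356-88279379, GRCm38) had 17, 26, 16 and 28 counts in the injured libraries of 72 h, against 2, 1, 1 and 3 counts in the naive ones. The groups did not overlap, the log2 fold change was 3.64 (SE 0.92, adjusted p = 0.0144 by edgeR), and without naive replicate 2 of 72 h the adjusted p was 0.0571. A B2_Mm1t window 171 bp away, too low to be tested, had 11, 15, 4 and 3 counts in the injured libraries of 72 h, against 4, 0, 0 and 0 counts in the naive ones. A B1F2 window in an intron of the long noncoding RNA gene Gm44993 (chr7:83811768-83811791, GRCm38) had 25, 15, 4 and 17 counts in the injured libraries of 72 h, against 0, 1, 2 and 1 counts in the naive ones. The groups did not overlap, and the log2 fold change was 3.84 (SE 1.17, adjusted p = 0.0399 by edgeR). This call was lost in 10 of 16 fits that left out 1 library, with an adjusted p of 0.0578 to 0.145 in those, and it did not hold with the totals of the repeat windows (adjusted p = 0.0549). With no filter on low counts neither was called, with adjusted p of 0.1055 for the Gm38392 window and 0.178 for the Gm44993 window by edgeR. With the replicate block neither was called, with adjusted p of 0.0692 for the Gm38392 window and 0.142 for the Gm44993 window by edgeR. Both host genes had under 4 counts in any group of 4 libraries and were not tested.

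**Figure D3:**
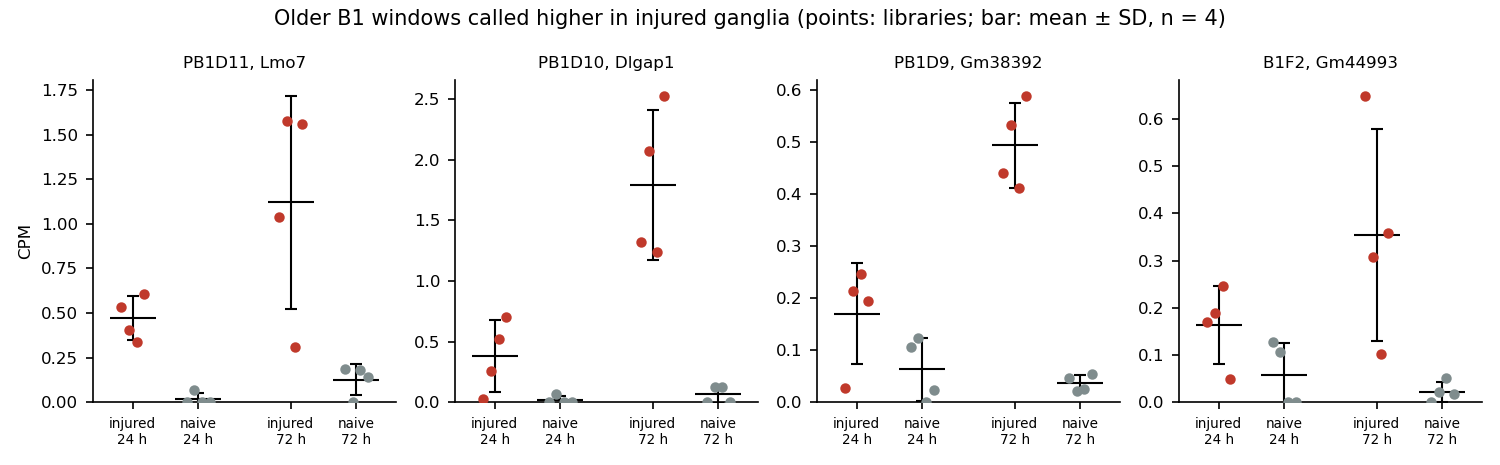
Level in CPM (vertical axes, from 0) of the 4 older B1 windows called higher in injured ganglia, by library (points), with the mean and SD of each group of 4 as a bar (lower ends are cut at 0); panel titles give the repeat name and the gene around the window. At 72 h all injured points lie above all naive points in each panel, while at 24 h this holds for the Lmo7 window alone.

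DESeq2 added 2 calls at 24 h that edgeR did not make, and these windows are named after their values were seen. A PB1D10 window in an intron of Nprl3, a subunit of the GATOR1 complex that restrains mTORC1, stood at 0.0297 ± 0.0448 CPM in injured and 0.382 ± 0.115 CPM in naive ganglia at 24 h, without overlap. Its log2 fold change was −3.49 (SE 1.17, adjusted p = 0.101) by edgeR and −3.60 (SE 1.13, adjusted p = 0.0224) by DESeq2. A PB1D10 window in an intron of Purg, which encodes a purine-rich element binding protein, stood at 0.276 ± 0.180 CPM in injured and 0.0370 ± 0.0740 CPM in naive ganglia at 24 h, with overlap. Its log2 fold change was 2.80 (SE 1.07, adjusted p = 0.158) by edgeR and 2.88 (SE 1.00, adjusted p = 0.0482) by DESeq2. At 72 h the Nprl3 window was at 0.143 ± 0.125 CPM in injured and 0.0714 ± 0.0727 CPM in naive ganglia, and the Purg window at 0.263 ± 0.140 CPM in injured and 0.287 ± 0.154 CPM in naive ganglia.

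The 6 older windows of highest mean level did not pass the test at either time. The PB1D10 window in an untranslated region of Dnajb14, a co-chaperone of the endoplasmic reticulum membrane, had 5.36, 4.67, 3.94 and 3.13 CPM in injured and 4.71, 3.39, 4.02 and 4.13 CPM in naive libraries at 24 h. At 72 h it had 3.14, 4.88, 3.38 and 2.92 CPM in injured and 4.24, 3.67, 5.29 and 4.50 CPM in naive libraries. The groups overlapped at both times, with log2 fold changes of 0.07 (SE 0.20) and −0.30 (SE 0.20). Dnajb14 itself fell at 72 h, to 109 ± 7.22 CPM in injured ganglia, against 128 ± 8.32 CPM in naive ganglia (log2 fold change −0.23, SE 0.06, adjusted p = 0.0030 by edgeR).

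The B1F window in an untranslated region of Znrf2, an E3 ubiquitin ligase, averaged 1.77 ± 0.51 CPM in injured and 1.91 ± 0.23 CPM in naive ganglia at 24 h, and 1.57 ± 0.33 CPM in injured and 1.60 ± 0.24 CPM in naive ganglia at 72 h. A PB1D9 window in an intron of Gtpbp3, an enzyme that modifies mitochondrial tRNA, had 0.564, 0.781, 0.832 and 0.800 CPM in injured libraries of 24 h, against 1.65, 0.918, 0.867 and 1.23 CPM in naive ones. The injured libraries lay under the naive ones, and the share of all tested windows so separated is not given. The log2 fold change was −0.64 (SE 0.32), with an adjusted p of 0.319 by edgeR. A B1F window in an intron of Prune2 had a log2 fold change of 0.00 (SE 0.62) at 24 h and −0.04 (SE 0.60) at 72 h. Prune2 itself was called higher at 24 h (0.20, SE 0.07) and lower at 72 h (−0.30, SE 0.07), with adjusted p of 0.0326 and 0.0012 by edgeR. The PB1D10 exon window of 6330403L08Rik had log2 fold changes of −0.64 (SE 0.61) and −0.09 (SE 0.60), and a PB1D7 window outside genes on chromosome 9 of −0.08 (SE 0.42) and 0.50 (SE 0.43).

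**Figure D4:**
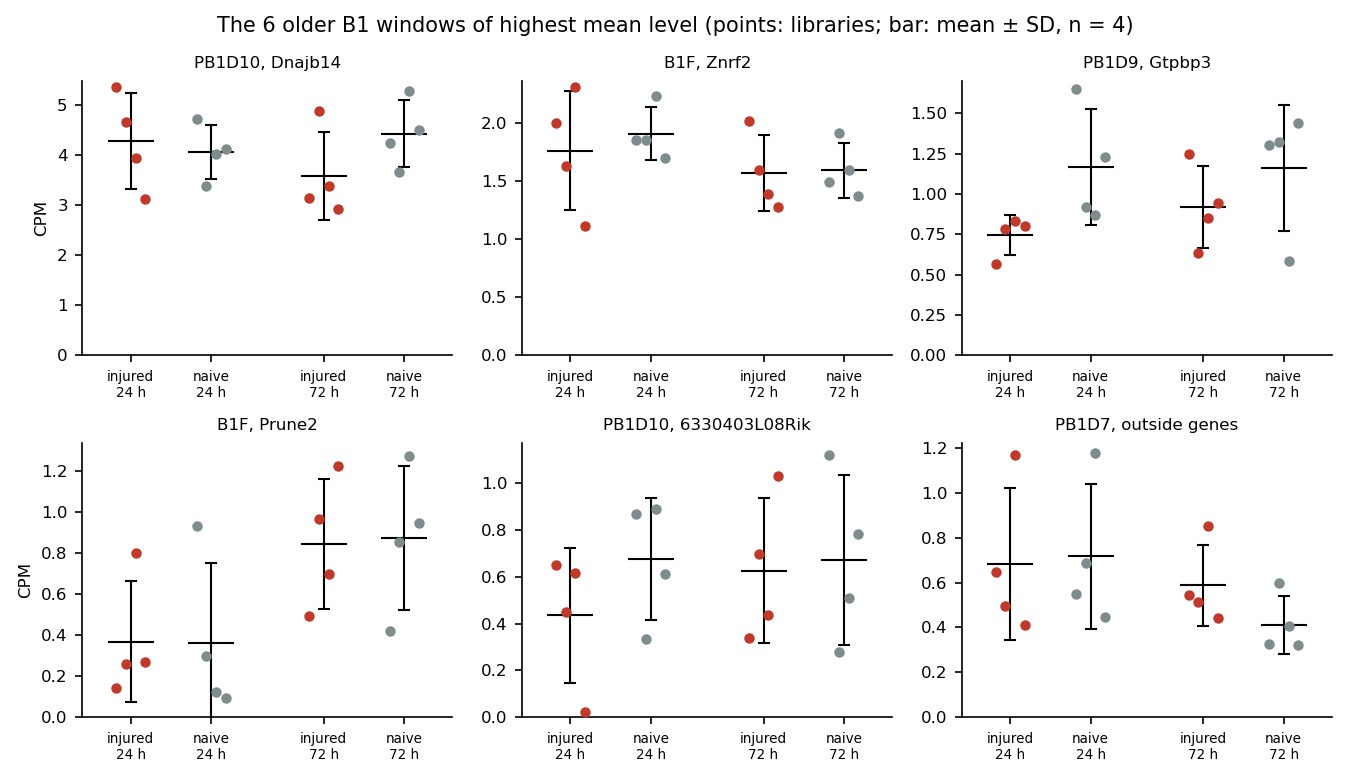
Level in CPM (vertical axes, from 0) of the 6 older B1 windows of highest mean level, by library (points), with the mean and SD of each group of 4 as a bar; panel titles give the repeat name and the gene around the window. Injured and naive points overlap at 72 h in all 6 panels, and at 24 h in all but the Gtpbp3 panel, where the injured libraries lie at 0.564 to 0.832 CPM and the naive ones at 0.867 to 1.65.

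The other windows tested were spread on both sides of 0. The 59 windows that edgeR did not call at 24 h had log2 fold changes of −3.49 to 2.80, with a median of 0.00, of which 29 were above 0 and 30 below. The 57 not called at 72 h ran from −2.66 to 2.25, with a median of −0.02, of which 28 were above 0 and 29 below. Their standard errors reached 1.70 at 24 h and 1.5 at 72 h. Among the tested older windows, 1 of 21 in exons, 1 of 29 in introns and 0 of 11 outside genes rose at 24 h, and 1, 3 and 0 of them at 72 h. Of all tested windows, 4.63% were called higher at 24 h and 9.07% at 72 h, and the locations were not tested against each other.

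A B2 window lay within 500 bp of 245 older windows (7.38%), a distance chosen after the values were seen. Of these 6 were tested, 1 of which rose at 24 h and 2 at 72 h, the Dlgap1 and Gm38392 windows. Of the other 55 tested windows 1 rose at 24 h and 2 at 72 h. The median log2 fold change was 0.88 at 24 h and 1.49 at 72 h in the windows near B2, and −0.07 and −0.02 in the others. The 6 windows include the Dlgap1 and Gm38392 windows, whose rise had been seen before the distance was chosen, and all 6 had passed the filter on low counts. The difference of medians is therefore not independent of that choice, and it was not tested.

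The genes that hold the tested windows gave a second measure beside each window. Of 47 tested windows with a tested host gene, 9 host genes were called higher and 0 lower at 24 h, where 10.7% of all 19151 tested genes were called higher and 8.31% lower. At 72 h 7 host genes were called higher and 8 lower, where 14.4% and 13.5% of all genes were. The fold change of the window had the same sign as that of its gene in 30 of 47 windows at 24 h and 29 of 47 at 72 h. Across these windows, which share libraries and are not replicates, Pearson's r between the fold changes of window and gene was 0.37 at 24 h and 0.42 at 72 h, and Spearman's rho was 0.22 at each time. Without Lmo7 Pearson's r was 0.04 and 0.20, so that the Pearson values rest on that gene, while Spearman's rho was 0.17 at each time. Among the 29 windows with a mean of at least 10 counts, Lmo7 included, rho was 0.42 at 24 h and 0.43 at 72 h. The signs were the same in 20 of these 29 at each time, and none of this was tested.

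**Figure D5:**
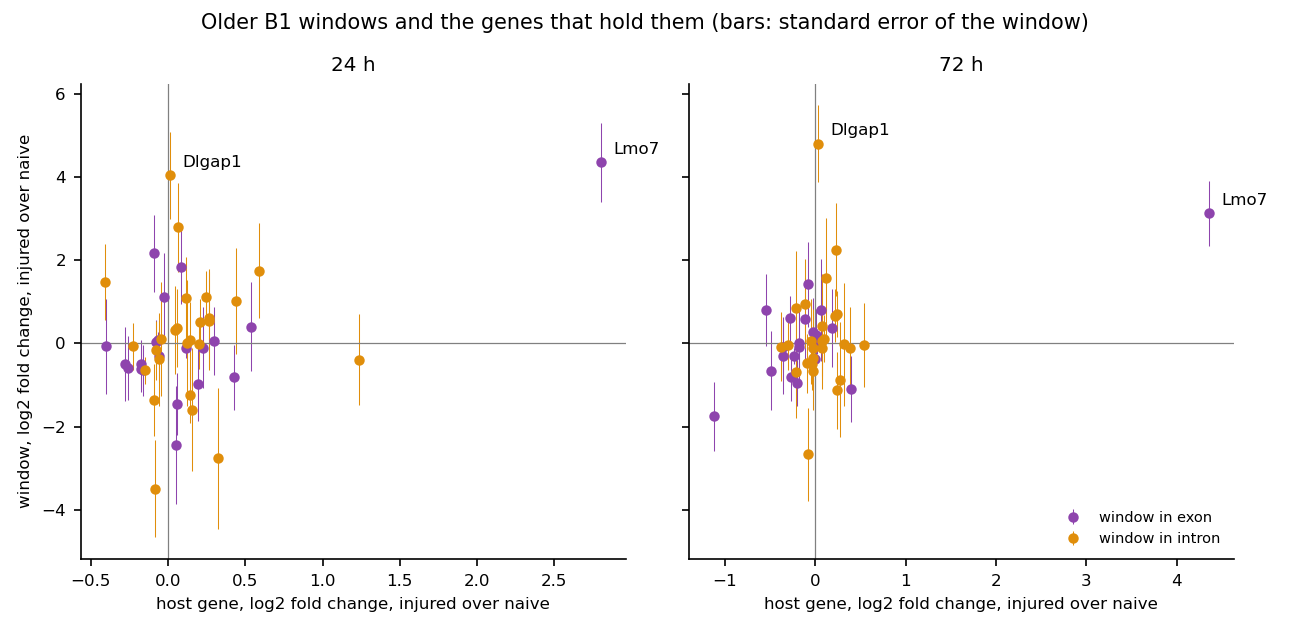
Log2 fold change, injured over naive, of 47 older B1 windows (vertical axes, with standard errors of the window as bars) against that of the gene around each (horizontal axes), at 24 h (left) and 72 h (right), for windows in exons (purple) and introns (orange). Lmo7 stands alone with high values on both axes, and Dlgap1 lies near 0 for the gene (0.01 and 0.04) with 4.04 and 4.80 for the window.

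Genes tied to B1 RNA were read from the gene table. Of the signal recognition particle genes, whose products bind 7SL RNA, 9 of 10 were matched in the gene table and 8 were tested. Of these 0 were called higher and 0 lower at 24 h by edgeR and by DESeq2, and 1 higher and 0 lower at 72 h. Over all genes tested, edgeR called 10.7% higher and 8.31% lower at 24 h, and 14.4% higher and 13.5% lower at 72 h. The 1 gene of this list called at 72 h was Srp14, which with Srp9 binds the Alu domain of 7SL RNA and RNA of the repeats derived from it. Srp14 was at 145 ± 6.80 CPM in injured and 145 ± 2.26 CPM in naive ganglia at 24 h, and at 160 ± 6.73 CPM in injured and 132 ± 4.33 CPM in naive ganglia at 72 h (log2 fold change 0.27, SE 0.05, adjusted p = 9.85e-05 by edgeR). Its response differed between the times (0.28, SE 0.07, adjusted p = 0.0130 by edgeR), as did that of 2.86% of all genes upwards and 3.44% downwards, while Srp9 had 0.05 (SE 0.08) at 24 h and 0.13 (SE 0.08) at 72 h. The median log2 fold change of the 8 genes was 0.00 at 24 h and 0.08 at 72 h, against −0.01 over all genes at each time.

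Of 23 genes of RNA polymerase III and its factors, 5 rose and 0 fell at 24 h, and 7 rose and 1 fell at 72 h, with median log2 fold changes of 0.00 and 0.13. Over all genes tested, 10.7% were called higher and 8.31% lower at 24 h, and 14.4% higher and 13.5% lower at 72 h, with a median of −0.01 at each time. Polr3d, a subunit of the enzyme, rose by 0.38 (SE 0.09) at both times, Bdp1, part of initiation factor TFIIIB, by 0.35 (SE 0.07) at 24 h, and the subunit gene Crcp by 0.30 (SE 0.07) at 72 h. Polr3g, a subunit gene, was the 1 that fell at 72 h (−0.24, SE 0.06, adjusted p = 0.0038 by edgeR).

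Of 20 genes that act on SINE RNA or on the chromatin of repeats, 5 rose and 0 fell at 24 h, and 2 rose and 1 fell at 72 h, with median log2 fold changes of 0.07 and 0.09. Of all genes, 10.7% were called higher and 8.31% lower at 24 h, and 14.4% higher and 13.5% lower at 72 h, so that the counts of this list at 72 h lie below those shares in both directions. Eif2ak2, the kinase PKR that binds double-stranded RNA, rose by 0.63 (SE 0.08) at 24 h and stood at 0.13 (SE 0.08, adjusted p = 0.229 by edgeR) at 72 h. Adarb1, an adenosine deaminase that edits double-stranded RNA, rose by 0.44 (SE 0.07) at 24 h and 0.94 (SE 0.07) at 72 h. The maintenance DNA methyltransferase gene Dnmt1 rose by 0.51 (SE 0.08) and 0.24 (SE 0.08), and the de novo methyltransferase gene Dnmt3a fell by 0.45 on the log2 scale (SE 0.08, adjusted p = 0.00013 by edgeR) at 72 h. These lists are given by count and were not tested as sets.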

How the data were processed

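Both deposited tables hold counts, whole read numbers that the authors did not scale: one per Ensembl gene and one per genomic window. Demultiplexing with bcl2fastq 2.17, STAR, HTSeq and the builds mm10 and GRCm38 are named in the submitters' processing notes. Strand setting, multi-mapping rule and the choice of windows are not given in the sources used here. Column names of the 72 h libraries state no time, and these columns were identified by elimination. The labels hold 1 date for all samples, so no batch could be split.

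The older B1 windows, the gene lists and the naming rule were chosen with earlier results of these data known. Counts were fitted with edgeR 4.0.16 in R 4.3.3 (quasi-likelihood, 16 libraries, group as the only term, filterByExpr by group with a minimum count of 10 and a minimum total of 15), scaled by the totals of the gene table and its TMM factors. Benjamini-Hochberg adjustment, with calls at 0.05, ran over 3780 windows, 334 repeat names (summed counts) or 19151 genes. Windows were placed with GENCODE M21, and for the 5 of 61 tested windows in more than 1 gene, 1 gene is named. For each injury comparison the windows named are up to 5 rises and 5 falls of greatest size that passed the threshold without overlap and averaged 10 or more counts, plus the 6 of highest mean CPM. Named list genes are those past the threshold with the 3 smallest p per comparison, and exceptions are said to be so. Calls in the marker lists are given here. Satellite glia had 1 of 6 genes called higher and 0 lower at each time. Myelinating Schwann cells had 0 of 6 higher and 1 lower at 24 h, and 2 higher and 0 lower at 72 h. Endothelium had 0 of 5 higher or lower at 24 h, and 0 higher and 1 lower at 72 h. Sensory neurons had 0 of 8 higher and 4 lower at 24 h, and 1 higher and 5 lower at 72 h. Macrophages had 0 of 6 called at 24 h, and 4 higher and 0 lower at 72 h. Neutrophils had 0 of 5 called at 24 h, and 0 higher and 5 lower at 72 h. Of all genes, 10.7% were called higher and 8.31% lower at 24 h, and 14.4% higher and 13.5% lower at 72 h.

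The series text calls the 4 mice of a time its replicates, each giving injured and naive ganglia, while the sample labels tie no library to an animal. The correlation of deviations between same-numbered injured and naive libraries was 0.047 to 0.101. Libraries were not paired, and values with the replicate block stand beside the window calls it changes. Nothing in the labels says that libraries of a group came from separate animals beyond the 4 mice per time of the series text, and p-values measure the spread between these libraries. The smallest chi-square per degree of freedom between libraries of a group was 9.79, so none was counted as a duplicate. On simulated counts the window test found 51.1% of changes of 1 and 94.3% of changes of 2 on the log2 scale. Every window was simulated with the same fixed spread between libraries, which was not estimated from these data. In the data the median standard error of the 61 tested older windows was 0.90 at 24 h and 0.88 at 72 h. The simulated shares therefore need not hold for these windows. Alternatives were DESeq2 1.42.0, other scalings, other filters, leaving out each of 16 libraries, a replicate block and, added after seeing the data, gene-table totals without TMM. The result of 1 further gene is not reported here.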

Additional observations from a re-analysis of the deposited data

Results flagged for a closer look

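In 76 groups of 4 libraries (summed levels and named windows), 1 library stood far from the other 3 in 3 cases, and chance flags about 1 in 20 such groups. The Lmo7 window had 0.0706 CPM in naive replicate 2 of 24 h and 0 in the other 3 naive libraries, and the Dlgap1 window had the same 0.0706 CPM in that library, again with 0 in the others. Each value is 4 counts. The Gtpbp3 window had 0.585 CPM in naive replicate 3 of 72 h, against 1.30 to 1.44 CPM in the other 3 naive libraries.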

How the results depend on the processing

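The count of older windows called higher at 24 h was 2, and 0 with a replicate block or with the libraries of 24 h alone, in which the Dlgap1 window did not pass the filter; leaving out 1 library gave 1 to 2. The count called lower at 24 h was 0, and 1 by DESeq2. The count called higher at 72 h was 4, and 2 with no filter, 2 with a mean of at least 10 counts (which leaves the Gm38392 and Gm44993 windows untested), 1 with the replicate block; leaving out 1 library gave 2 to 4. The block called none of the 8 names and was not run on genes. Of the injured libraries, 7 of 8 correlated best with the naive library of their own number, a hint from the data and not the design. The ratio of the summed level at 24 h was −0.38 with totals of the repeat windows. DESeq2 called 1 gene lower at 24 h among RNA polymerase III genes and 1 among SINE RNA and chromatin genes. Its shares over all genes are not given.

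The following log2 fold changes changed sign against the reported value, and the cause was not tested. B1F gave 0.0037 (24 h) and 0.012 (72 h) with the block, 0.024 and 0.15 outside exons, and 0.033 at 24 h without its top window. With the totals of the repeat windows, values at 72 h were −0.12 for PB1D7, −0.13 for PB1D9 and −0.070 for PB1D10. PB1D11, at 0.44 at 72 h in the main result, gave −0.031 there without its top window, the Lmo7 window, and −0.060 outside exons, which leaves that window out too, and at 24 h −0.043 without it. The Prune2 window at 24 h gave 0.00011 by DESeq2, 0.0056 with no filter, 0.29 with the block and 0.0014 with 24 h alone. Leaving out 1 library gave at 24 h −0.10 to 0.11 for B1F, −0.19 to 0.32 for B1F2, −0.054 to 0.20 for the Dnajb14 window, −0.28 to 0.049 for Znrf2, −0.69 to 1.03 for Prune2 and −0.46 to 0.26 for the chromosome 9 window, and at 72 h −0.13 to 0.11 for B1F, −0.29 to 0.081 for B1F2, −0.089 to 0.27 for PB1D7, −0.16 to 0.080 for Znrf2, −0.28 to 0.19 for Prune2 and −0.45 to 0.26 for 6330403L08Rik. Depth limits single windows: 36 of 3319 had a mean of at least 10 counts.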

Other observations

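In the 16 libraries the older B1 windows held 0.19% to 0.439% of all counts in windows with a repeat family. At 24 h the injured libraries had 0.19% to 0.287% and the naive ones 0.283% to 0.356%. At 72 h the injured libraries had 0.344% to 0.425% and the naive ones 0.309% to 0.439%. This share depends on the level of all other repeats and was not tested. In the naive group of 72 h, replicates 3 and 4 had 0.429% and 0.439%, and replicates 1 and 2 had 0.311% and 0.309%.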
